A study of Drosophila melanogaster with 7 samples.

Results

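The sites described here are the peaks of dCTCF, the fly homolog of the insulator protein CTCF, that were called in interphase with no overlapping interphase peak of CP190. Overlap meant at least 1 bp, and only peaks on the large arms of chromosomes 2 and 3, on chromosome 4 and on X were used. The sites were thus chosen by the peak calls of these 2 interphase libraries. The rule kept 687 of 2882 interphase dCTCF peaks (23.8%, 22.3 to 25.4%), and the other 2195 overlapped CP190. The material was chromatin of Kc167 cells, an established embryonic line of Drosophila melanogaster, fixed with 1% formaldehyde and sorted into interphase and mitotic cells by staining for phosphorylated histone H3 and DNA. Chromatin immunoprecipitation with sequencing (ChIP-seq) gave 1 library for each of CP190, dCTCF and BEAF in both phases and for Su(Hw) in mitosis. All groups were the same line, grown in serum-free medium, and the labels name no allele or agent that set them apart. In every group the cells had been stained with the antibody to phosphorylated H3 and a fluorescent anti-rabbit antibody before chromatin was precipitated with protein A beads. Because this staining sorted the phases, the amount of bound antibody was not equal between them. Its effect on the precipitates was not tested. The 7 peak lists together held 40204 peaks.

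With a single library per group there are no replicates to set a difference against, and no p-values are printed. Ranges in brackets are 95% Wilson intervals of a share, and those beside a difference of shares are 95% Newcombe intervals. For a count of 0, the largest share it allows is given as 3 counts over the number of sites, which is not a Wilson bound. All of these cover counting error over sites only, and neighbouring sites are not independent. Read numbers were not used here, so depth is unknown, and a missing peak means that none was called at that depth. Scores are the authors' and run from 50 to about 3100, where they may be capped. They rank peaks within 1 list and do not compare binding between lists. Because the rule used the interphase dCTCF and CP190 lists, the dCTCF scores and the distances to CP190 are given as a description. The interphase BEAF list and the 4 mitotic lists were not used by the rule.

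Insulator proteins bind chromatin at sites that separate or connect regulatory domains. dCTCF recognises DNA through its zinc fingers and BEAF, the boundary element-associated factor, through a zinc-finger domain of its own. CP190 is a cofactor that these DNA-binding proteins bring to insulators, as does Su(Hw), the zinc-finger protein of the gypsy insulator. No genome of the release used by the files was at hand, so no sequence, motif or gene is given for the sites. Positions were copied from the lists, and their chromosome names match release 5 of the fly genome.

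The sites fell into 2 classes that differed in interphase dCTCF score. BEAF was called in interphase at 156 of the 687 sites (22.7%, 19.7 to 26.0%). Over all main-arm interphase dCTCF peaks the share with BEAF was 48.5%, and among those with CP190 it was 56.6% (54.5 to 58.7%), a difference of -33.9 points (-37.5 to -30.0). The 156 sites with BEAF were nearly all weak. Their dCTCF scores had a median of 72.8 and a 10th to 90th percentile range of 54.3 to 134, and 152 of them scored below 200. The 531 sites without BEAF spanned the whole range. Their median score was 432, with 66.2 to 1524 between the same percentiles, and 129 of them scored 1000 or more. Lower scores with BEAF were not particular to these sites. At dCTCF sites with CP190 the medians were 124 with BEAF and 925 without it. Scores below 200 made up 60.1 and 35.6% there, against 97.4 and 33.3% at the sites without CP190. Among the sites without CP190, those with BEAF were also wider, with a median of 728 bp against 569 bp. Only 4 of the 687 sites reached the score of 3100, against 306 of the 2195 sites with CP190.

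Most of these sites had no interphase CP190 peak within 1000 bp, and overlap itself was left out by the rule. The main arms held 10431 interphase CP190 peaks, and the distance to them from other positions was not computed. The median distance from the edge of the site to the nearest interphase CP190 peak was 5607 bp, and 573 sites had none within 1000 bp. The sites with and without BEAF had like median distances of 6164 and 5554 bp. The rule has an edge, however. Just inside it, the site at 3L 9421956 to 9422586 lay 5 bp from a CP190 peak with a dCTCF score of 57.21, and the site at 3R 22942784 to 22943429 lay 17 bp away with a score of 700.27. Just outside it, the dCTCF peak at X 658203 to 658818, with a score of 116.28, shared 3 bp with a CP190 peak of score 3100.

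In mitosis most of the sites had no peak of any protein. None of the 4 mitotic lists had a peak at 475 of the 687 sites (69.1%, 65.6 to 72.5%), whereas this held for 35.4% of all main-arm interphase dCTCF peaks and for 24.8% (23.0 to 26.6%) of those with CP190. A mitotic dCTCF peak was found at 203 sites (29.5%, 26.3 to 33.1%), near the 33.8% of all interphase dCTCF peaks. Mitotic CP190 was at 24 sites (3.49%, 2.36 to 5.15%; 43.8% over all), mitotic BEAF also at 24 (23.2% over all) and Su(Hw) at 6 (0.873%; 6.90% over all). By far the commonest mitotic combination was dCTCF alone, at 164 sites. All 4 proteins met at 1 site, 3L 21491597 to 21491913, whose mitotic scores were 115.95 for dCTCF, 408.08 for BEAF, 90.40 for CP190 and 109.62 for Su(Hw).

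**Figure D1:**
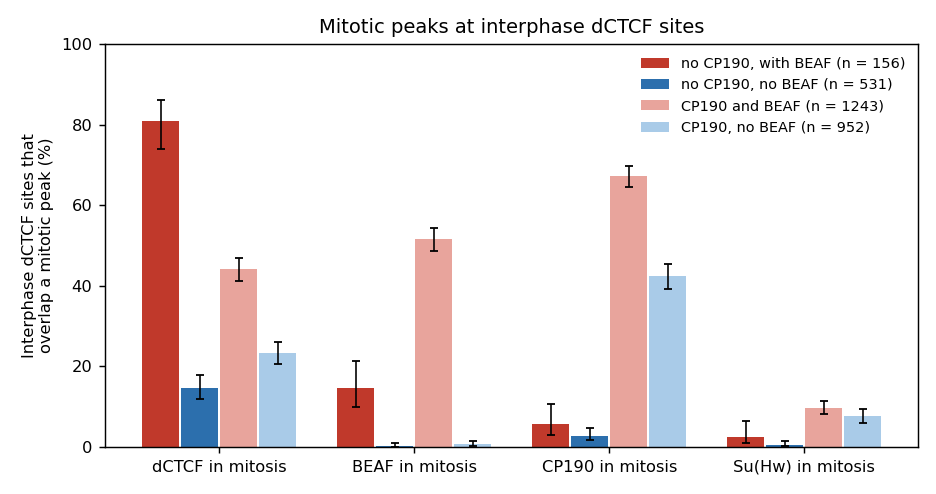
Share (%) of main-arm interphase dCTCF sites that overlap a peak of each mitotic list, for sites without CP190 (dark bars) and with CP190 (pale bars), each with and without interphase BEAF. Error bars are 95% Wilson intervals over sites of 1 library per list; mitotic dCTCF stood at 80.8% of the sites with BEAF alone, and mitotic CP190 was at 5.77% or fewer of the sites without interphase CP190.

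Sites with interphase BEAF had mitotic dCTCF more often than sites without it. A mitotic dCTCF peak overlapped 126 of the 156 sites with BEAF and 77 of the 531 without it, a difference of 66.3 points (58.6 to 72.3). At dCTCF sites with CP190, those with and without BEAF differed by 20.8 points (16.9 to 24.6), and the difference between both contrasts was 45.5 points (37.0 to 52.7). The order reversed when wide mitotic peaks were set aside: counting only mitotic dCTCF peaks under 3000 bp, the contrasts were 10.9 and 20.9 points and their difference -10 points (-17.5 to -1.60). With 400 bp around midpoints that difference was 3.17 points (-4.80 to 11.4), and averaged over strata of dCTCF score and width it was -0.446 points (-9.67 to 15.7). The 66.3 points varied with how overlap and width were treated. Among dCTCF peaks under 1000 bp wide the difference was 72.3 points (63.3 to 78.5), and other settings lowered it. With a reciprocal overlap of 50% the difference was -7.47 points, over a changed set of 1322 sites. With 400 bp around each midpoint it was 17.6 points. Averaged over strata of dCTCF score and width it was 15.8 points (7.62 to 31.3), where the weak and wide strata held 6 and 7 sites without BEAF, 9 of them in the array on 2L described below.

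Much of this overlap came from very broad mitotic dCTCF peaks. A mitotic dCTCF peak of 3000 bp or more, a limit set after the widths had been seen, lay over 111 of the 687 sites (16.2%, 13.6 to 19.1%). Over all interphase dCTCF peaks the share was 4.02%, and 5 of the 2195 sites with CP190 lay in such a region. Of the sites with BEAF, 92 of 156 (59.0%, 51.1 to 66.4%) lay in one, and of those without BEAF 19 of 531, of which 17 belonged to the array on 2L. Counting narrower mitotic dCTCF peaks alone, the shares were 21.8% with BEAF and 10.9% without, a difference of 10.9 points (4.41 to 18.4). The sites with CP190 had narrow mitotic dCTCF peaks more often, in 34.9% of cases against 13.4%, a difference of -21.5 points (-24.6 to -18.1) for the sites without it.

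**Figure D2:**
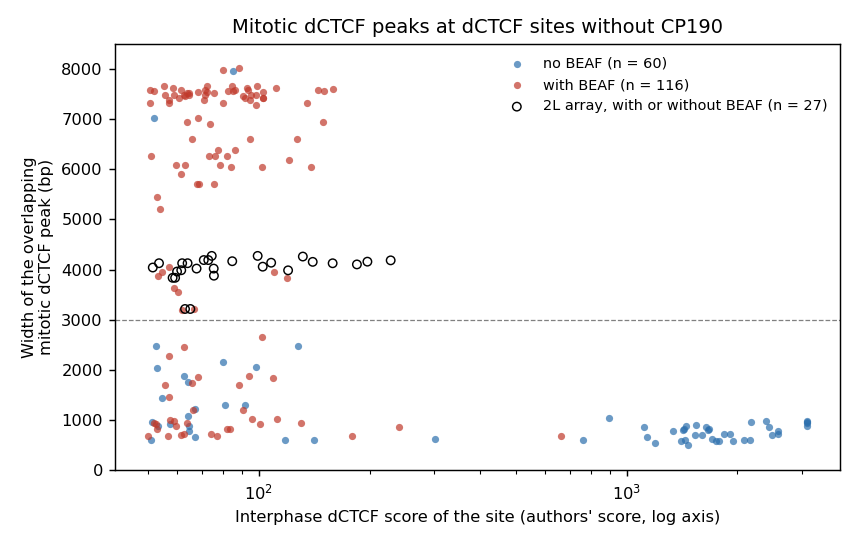
Interphase dCTCF score (log axis) against the width in bp of the overlapping mitotic dCTCF peak, for the 203 dCTCF sites without CP190 that had one, coloured by interphase BEAF; open circles are the 27 sites of the array on 2L and the dashed line is 3000 bp. Broad mitotic peaks lie over weak sites, most with BEAF, and the strong sites at the right, without BEAF, have mitotic peaks of 502 to 984 bp.

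Away from the array on 2L, 84 sites lay in 44 distinct broad mitotic dCTCF regions, so these sites are not independent of each other. Of these regions, 20 held 1 site, 12 held 2, 8 held 3 and 4 held 4. The regions had a median width of 6981 bp, and 21 of the 44 were between 7000 and 8000 bp wide, while 4 of the 80 broad mitotic dCTCF regions without such a site fell in that range. Of those 80, 76 held no interphase dCTCF peak and 4 held a dCTCF site with CP190, so the comparison is mainly with regions lacking interphase dCTCF. Interphase BEAF was called within 43 of the 44 regions and in 52 of the 80 others. Of the 84 sites, 82 overlapped interphase BEAF themselves, so the 43 regions largely repeat the count over sites. Interphase CP190 touched 7 of the 44 and 47 of the 80, and mitotic CP190 was in 3 and 44. Su(Hw) was in none of the 44 and in 34 of the 80. The absence of interphase CP190 at the sites themselves is fixed by the rule, and regions were not matched for width. The sites in these regions were weak in interphase, with a median dCTCF score of 73.3, and 1042 bp wide at the median.

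The highest mitotic dCTCF score at any of the sites was in such a region on X, 6610 bp wide with a score of 2814.29. It covered 3 sites, at 22023053 to 22024234, 22026563 to 22027827 and 22027949 to 22028529, whose interphase dCTCF scores were 126.97, 94.92 and 65.72. BEAF was called in interphase at all 3, with scores of 281.89, 117.47 and 106.02. None of these 3 sites overlapped a mitotic peak of BEAF, CP190 or Su(Hw). At 3L 407612 to 408991 a site of dCTCF score 158.94 and BEAF score 248.83 lay in a mitotic dCTCF region 7612 bp wide with a score of 1790.23. By contrast, the site with the next highest mitotic dCTCF score, X 21834587 to 21835238 (2680.72), had a mitotic peak of 1042 bp, an interphase score of 895.63 and no BEAF.

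The 156 sites with BEAF separated by the strength of the BEAF peak. At 130 of them the interphase BEAF score was below 500, and there 91 (70.0%) lay in a broad mitotic dCTCF region, 18 overlapped a narrower mitotic dCTCF peak and 5 overlapped mitotic BEAF. At the 26 sites with a BEAF score of 500 or more the picture turned round. Mitotic BEAF was called at 18 of them (69.2%, 50 to 83.5%), a narrow mitotic dCTCF peak at 16 (61.5%) and a broad one at 1. Mitotic CP190 was at 0 of these 26 sites, which allows a share of up to 11.5%. The sites with the highest mitotic BEAF scores on X and 3L had strong BEAF or none in interphase. At X 6149818 to 6150293 a weak dCTCF peak (52.90) coincided with an interphase BEAF peak of 3100, and the mitotic scores were 1832.65 for BEAF and 107.59 for dCTCF. At 3L 19438893 to 19439505 the interphase scores were 63.81 for dCTCF and 3100 for BEAF, and the mitotic BEAF score was 1337.84. The site at 3L 11816186 to 11816689 had no interphase BEAF peak but a mitotic one of 1089.98, and it was the only site without BEAF in interphase that had one in mitosis.

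**Figure D3:**
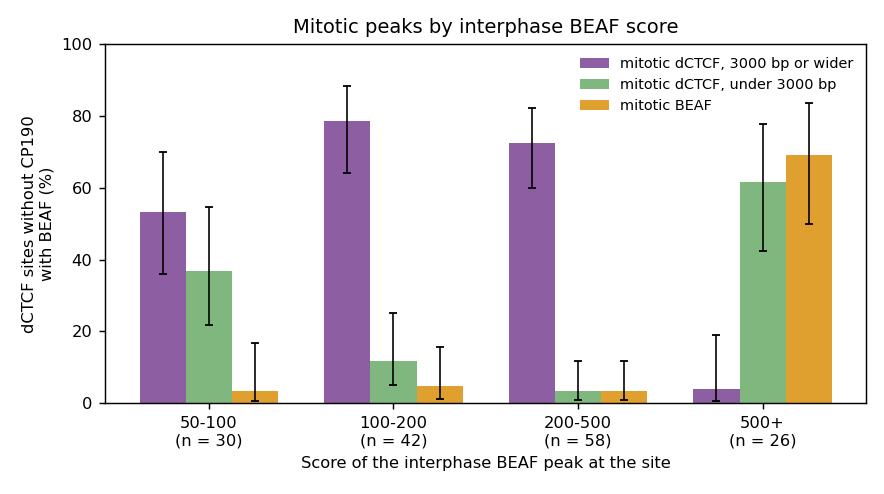
Share (%) of dCTCF sites without CP190 but with BEAF that lay in a broad mitotic dCTCF peak, a narrower one or a mitotic BEAF peak, by the authors' score of the interphase BEAF peak; error bars are 95% Wilson intervals. Broad mitotic dCTCF covered 53.3, 78.6 and 72.4% of the sites in the lower bands and 3.85% in the highest, where mitotic BEAF was at 69.2%.

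Mitotic BEAF was rarer at these sites than at BEAF-bearing dCTCF sites with CP190, at 14.7% against 51.5%, a difference of -36.7 points (-42.2 to -29.8). The BEAF scores differed too, since the BEAF peaks at sites without CP190 had a median score of 206 and 26 of 156 reached 500, against 685 of 1243 where CP190 was present. Where the BEAF score was at least 500 the shares were 69.2% and 88.5%, a difference of -19.2 points (-38.6 to -4.73). Where it was below 500 they were 3.85% and 6.09%, and the interval of the difference, -5.43 to 2.88 points, included 0. Both peaks overlap here by definition. The dCTCF and BEAF midpoints were 149 bp apart at the median, against 112 bp at dCTCF sites with CP190 and BEAF. BEAF covered 50% or more of the dCTCF peak at 132 of the 156 sites without CP190.

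Among the 531 sites without BEAF, overlap with a mitotic dCTCF peak was found at both ends of the score range and hardly at all between. Of those with a dCTCF score from 50 to 75, 26 of 69 had a mitotic dCTCF peak (37.7%, 27.2 to 49.5%). In the bands from 200 to 500 and from 500 to 1000 only 1 of 110 (0.909%) and 2 of 115 (1.74%) did. From 1000 to 2000 the share was 20.0% (13.6 to 28.4%), and above that 12 of 19 sites (63.2%, 41.0 to 80.9%) had one. Without the array on 2L the share in the lowest band was 15 of 58 (25.9%, 16.3 to 38.4%). Of the 40 weak sites (score below 200) with mitotic dCTCF, 19 lay in broad peaks, but 17 of these 19 were in the array, and off it 21 of 23 had a narrow peak. At the high end all 34 of the 129 sites scoring 1000 or more that had mitotic dCTCF had a narrow peak, between 502 and 984 bp wide with a median of 746 bp. Mitotic CP190 was at 0 of those 129 strong sites, which allows a share of up to 2.33%.

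**Figure D4:**
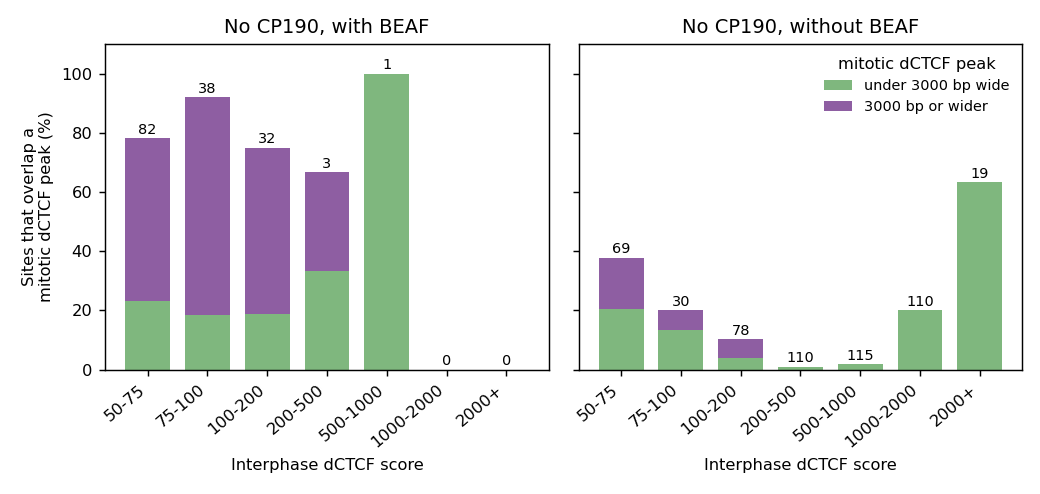
Share (%) of dCTCF sites without CP190 that overlap a mitotic dCTCF peak, by interphase dCTCF score, with the part in mitotic peaks of 3000 bp or more stacked on the part in narrower ones; numbers above the bars are sites in the band. Without BEAF the share was 37.7% at scores of 50 to 75 (25.9% without the array on 2L), 0.909% at 200 to 500 and 63.2% above 2000; with BEAF only 4 sites scored 200 or more.

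The dCTCF sites with CP190 and no BEAF followed the same high, low and high course, with mitotic dCTCF at 25.4% for scores of 50 to 75, 2.74% for 200 to 500 and 47.1% above 2000. In the band from 50 to 200 mitotic dCTCF was at 22.6% of 177 sites without CP190 and 16.8% of 339 with it, and the interval of the difference, -1.26 to 13.4 points, included 0. For interphase scores from 1000 to 2000, it was called at 22 of 110 sites without CP190 (20.0%) and at 13 of 153 with CP190 (8.50%), a difference of 11.5 points (3.06 to 20.6). Above 2000 the shares were 63.2% of 19 and 47.1% of 308, with an interval of -6.73 to 34.6 points. For scores from 200 to 1000 they were 1.33 and 4.61%, and the interval of -7.95 to 0.173 points included 0. Over all scores the shares without BEAF were 14.5% without CP190 and 23.3% with it, a difference of -8.82 points (-12.7 to -4.67). With BEAF the shares were 80.8% without CP190 and 44.1% with it, a difference of 36.7 points (29.3 to 42.7). For mitotic dCTCF peaks under 3000 bp alone, that difference was -22.1 points (-28.5 to -14.5). When sites with and without BEAF were pooled, mitotic dCTCF was less frequent at sites without CP190, a difference of -5.53 points (-9.39 to -1.50). Averaged over strata of score and width, the pooled difference was 5.81 points (2.64 to 9.08) in the other direction. That value counts broad mitotic peaks, which lay over 16.2% of the sites and 0.228% of those with CP190. Among sites without BEAF, mitotic CP190 was less frequent where interphase CP190 was missing in each dCTCF score band compared, by 20.9 points or more. With BEAF, over all scores, mitotic CP190 was at 5.77% of sites without interphase CP190 and 67.3% of those with it.

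Of the 8 highest scoring sites without BEAF, 7 had a mitotic dCTCF peak and none had mitotic CP190, BEAF or Su(Hw). Among the sites with a score of 3100, the mitotic score varied widely. It was 927.28 at 2R 19145560 to 19146395 and 536.38 at 2L 10603221 to 10604134. It was 114.10 at 2L 11623800 to 11624782, which lay 54748 bp from the nearest interphase CP190 peak. At 3R 10402040 to 10403702, which lay 78 bp from one, it was 102.65. The exception among the 8 was 2L 14580864 to 14581721, with an interphase score of 2526.73 and no call in any mitotic list.

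Nearly all mitotic CP190 at these sites came from a single array on 2L. When sites whose midpoints lay within 15 kb of the next were joined, the 687 sites formed 552 loci, of which 476 held 1 site and 1 held 27. That locus ran from 2L 21423599 to 21539479, a span of 116 kb, and all 27 interphase dCTCF peaks in it were sites without CP190, since the span had 0 interphase CP190 peaks. The sites were weak, with scores from 51.5 to 228 and a median of 74.5, and 10 of the 27 overlapped a BEAF peak. In mitosis the same span held 22 dCTCF peaks of 3214 to 4273 bp, 38 CP190 peaks, 9 Su(Hw) peaks and 0 BEAF peaks. Every one of the 27 sites lay in a broad mitotic dCTCF peak, 22 (81.5%, 63.3 to 91.8%) overlapped mitotic CP190 and 5 Su(Hw). Mitotic BEAF was at 0 of the 27, which allows a share of up to 11.1%.

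The mitotic dCTCF peaks of the array were evenly spaced. Of the 21 steps between neighbouring midpoints, 20 lay between 4737 and 5338 bp, with a median of 5009 bp and an SD of 137 bp, and the remaining step was 14118 bp. The mitotic CP190 peaks in the span had scores from 53.1 to 166. The highest at any of the sites was 162.13, at 2L 21439560 to 21440002, where the dCTCF score was 58.31 in interphase and 750.61 in mitosis. As background, the histone genes of the fly form a tandemly repeated array on 2L. The peaks were not assigned to genes, so whether they lie in it was not tested, and the sources used here do not give how reads from repeated sequence were placed. Without the array, mitotic CP190 was at 2 of 660 sites (0.303%, 0.0831 to 1.10%) and Su(Hw) at 1 (0.152%), while mitotic dCTCF stayed at 26.7% and its difference between sites with and without BEAF at 67.8 points (59.9 to 74.1).

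**Figure D5:**
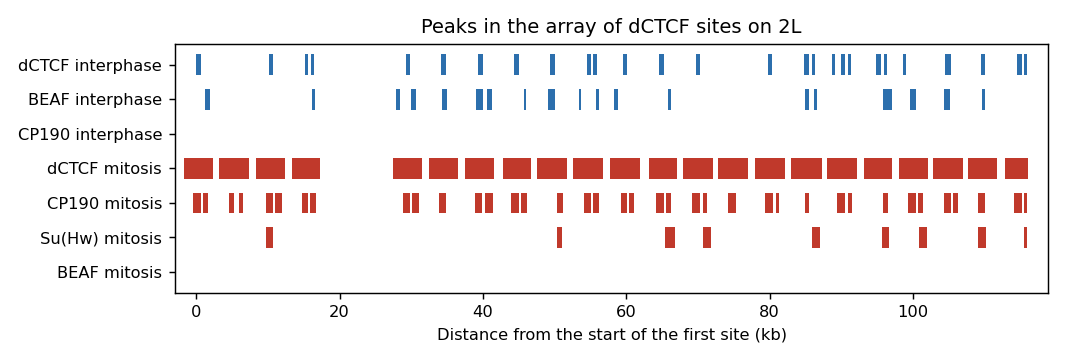
Peaks of each list along the array on 2L, as distance in kb from the start of the first of its 27 dCTCF sites; blue bars are interphase peaks and red bars mitotic peaks, drawn at their width. No CP190 is called in interphase, and in mitosis 22 broad dCTCF peaks recur at steps with a median of 5009 bp, with 38 CP190 peaks over the same span.

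The sites were spread over all arms. They made up 29.5% (25.6 to 33.6%) of the interphase dCTCF peaks on 2L, 27.5% (24.1 to 31.3%) on X and between 19.2 and 21.8% on the other arms, where chromosome 4 had 5 sites. Without the array the 2L share was 25.4% (21.7 to 29.5%). Outside 2L, mitotic CP190 was called at 2 of the sites, both on 3L. Mitotic dCTCF was at 46.9% of the sites on 2L (42 of 120 without the array, 27.1 to 43.9%), 32.5% on 3L, 29.8% on X, 19.1% on 2R and 16.5% on 3R. By distance from interphase CP190, mitotic dCTCF was at 41.1% (30.5 to 52.6%) of the 73 sites within 500 bp of a CP190 peak. It was at 29.3% of the 41 sites from 500 to 1000 bp and 20.7% (15.7 to 26.7%) of the 208 from 1000 to 5000 bp. From 5000 to 20000 bp it was at 30.4% of 270 sites, and beyond 20000 bp at 37.9% (28.8 to 47.9%) of 95. Of those 95 sites 22 belonged to the array, and without them the share was 14 of 73 (19.2%, 11.8 to 29.7%). Without the array the bands between stood at 27.5, 20.3 and 29.6%, so the shares did not follow distance in order. Median dCTCF scores also differed, at 73.3, 169, 325, 289 and 197 from the nearest band to the farthest, array included. Mitotic CP190 was at 0 of the 73 sites nearest to interphase CP190, which allows a share of up to 4.11%.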

How the data were processed

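ChIP-seq peaks of 4 insulator proteins in sorted Kc167 cells were analysed, with 1 library and 1 list per group, taken from the sample titles. The submitters' processing notes name Bowtie 0.12.5. Each peak has a position and a score in the files the authors deposited. Peak names begin with MACS. The sources used here do not give the caller's version, control and threshold, the meaning of the score or the genome build. Sonicated chromatin of 200 to 1000 bp was used and fragments of 200 to 300 bp were selected, per the labels' protocols. Starts were read as in BED files and are printed 1-based.

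Overlaps were computed with Python 3.11.15, NumPy 2.4.6 and pandas 2.3.3 and plotted with matplotlib 3.10.9. They were tested on simulated data, and in 42 of 42 pairs of lists the counts equalled what bedtools 2.31.1 gave. Where several peaks overlapped a site, the highest scoring was used. For strata, interphase dCTCF peaks were divided by score quintile and by the median width, and weighted by the number of sites in the first set compared. Named sites were the 8 highest dCTCF scores with and without BEAF, the 4 highest scores of each mitotic list and sites in all 4 mitotic lists, and examples are given. The sites, their bands and these rules were chosen with earlier results of these data known. Alternatives were 50% reciprocal overlap, scores of 100 or more, 400 bp around midpoints, no CP190 within 1000 bp, dCTCF peaks under 1000 bp, no X, and strata of score and width. Leaving out the array (also within strata), mitotic dCTCF peaks under 3000 bp alone, and 1 site per locus were added after the data were seen.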

Additional observations from a re-analysis of the deposited data

Results flagged for a closer look

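The difference in mitotic dCTCF between sites with and without BEAF was 66.3 points where interphase CP190 was missing and 20.8 points where it was present. These contrasts differed by 45.5 points (37.0 to 52.7), an interval over sites of single libraries that leaves out 0. Broad mitotic dCTCF peaks lay over 59.0% of the sites with BEAF and no CP190 and over 0.161% of those with both. Counting only mitotic dCTCF peaks under 3000 bp, the contrasts were 10.9 and 20.9 points, a difference of -10 points (-17.5 to -1.60) in the other direction.

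Sequences outside the main arms did not enter the report. There, 527 interphase dCTCF peaks had no CP190, and 70.8% (66.8 to 74.5%) of them overlapped a mitotic dCTCF peak. On the main arms the share of sites without CP190 was 29.5% (26.3 to 33.1%). The main arms held 2237 of the 6030 mitotic dCTCF peaks but 2882 of the 3962 interphase ones. The share over all interphase dCTCF peaks outside the main arms was not computed, so the 70.8% cannot be tied to the absence of CP190.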

How the results depend on the processing

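For 11 results, 67 of 102 alternative values kept their direction and their side of 0 or stayed within their interval or 1.5 times of a count, and the others follow. With a reciprocal overlap of 50%, which also admits sites that share part of a CP190 peak, there were 1322 sites, with mitotic dCTCF at 15.7%, BEAF at 9.68%, CP190 at 21.4% and Su(Hw) at 2.42%. The difference between sites with and without BEAF was then -7.47 points for mitotic dCTCF and 31.4 for mitotic CP190. With a score of at least 100, interphase BEAF was at 6.26% of sites and mitotic dCTCF, BEAF, CP190 and Su(Hw) at 13.7, 1.39, 1.22 and 0.348%. With 400 bp around midpoints the mitotic shares were 23.3, 7.30, 11.3 and 1.94%, and the difference in mitotic CP190 with BEAF was 24.2 points in place of 2.94. With dCTCF peaks under 1000 bp, interphase BEAF was at 15.4%, mitotic dCTCF at 25%, and that CP190 difference was 6.87 points. Averaged over strata it was -31.1 points, but 0.680 without the array. The stratified difference in mitotic dCTCF between sites without and with CP190 was 5.81 points, and 3.79 without the array. Without the array, mitotic CP190 was at 0.303% and Su(Hw) at 0.152%. With 1 site per locus, interphase BEAF was at 17.2%, and mitotic dCTCF, CP190 and Su(Hw) at 21.6, 0.362 and 0.181%. Counting mitotic dCTCF peaks under 3000 bp alone gave 13.4%. The 45.5 points between the contrasts with and without BEAF became -9.98 with reciprocal overlap, 3.17 with 400 bp around midpoints, -10 with mitotic dCTCF peaks under 3000 bp, -0.446 over strata and -2.33 over strata without the array. Leaving out X, or sites with CP190 within 1000 bp, changed none of the 11 results in this way. The cause of these shifts was not tested. No paired analysis was possible because each group has 1 library. Unknown depth limits every statement that a peak was missing.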
